A study of Homo sapiens with 2 samples.

Results

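The H/ACA-box small nucleolar RNAs and the small Cajal-body RNAs are short non-coding RNAs that guide chemical changes on other RNAs. They were taken here as every gene whose platform symbol starts with SNORA or SCARNA and which has a probe set naming that 1 gene. There were 77 such genes (61 SNORA and 16 SCARNA) among 18417 measured genes. Of these, 27 (20 SNORA and 7 SCARNA) had a mean log2 value over both arrays at or above 8.64, the median of all measured genes, which is called the level filter below.

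An H/ACA RNA folds into hairpins followed by an H box and an ACA end, and each hairpin can pair with a target RNA and position a uridine for conversion to pseudouridine by the enzyme dyskerin. SNORA RNAs act in the nucleolus, mainly on ribosomal RNA. SCARNA RNAs carry an extra signal that holds them in Cajal bodies, where they act on the small nuclear RNAs of the spliceosome. Some SCARNA RNAs have H/ACA boxes, some have the C/D boxes that guide methylation, and some have both. In human cells nearly all of these RNAs are cut out of introns of a host gene, and a few have been found as Dicer-made fragments bound to Argonaute proteins.

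The study compared cells of A549, an established line from a human lung adenocarcinoma, that overexpressed miR-130b with A549 cells transfected with an empty vector. RNA precipitated with an antibody against Ago2, the Argonaute protein that carries microRNAs, was measured on 1 whole-transcript Affymetrix array per group. The labels name no promoter, dose or time, and they give no array of the RNA before precipitation. There were no replicates, so no value has a replicate error and no test was possible. In bulk precipitates of this kind, fewer cells carrying an RNA and less of it per cell cannot be told apart. A difference likewise combines the amount of an RNA in the cells with the share of it in the precipitate.

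The sequences of the overexpressed microRNA, credited to RefSeq (GRCh38.p14), are shown because they define the treatment. Both arms lie on the plus strand, the 5p arm at chr22:21653316-21653336 and the 3p arm at chr22:21653354-21653375. Capitals mark the seed, bases 2 to 8, which pairs with target RNAs.
hsa-miR-130b-3p: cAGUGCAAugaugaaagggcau
hsa-miR-130b-5p: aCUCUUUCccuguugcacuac

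The probe set of MIR130B stood at 12.64 on the miR-130b array and at 6.66 on the empty-vector array, so the arrays went with their labels. AGO2 stood at 11.66 on the miR-130b array and at 11.41 on the empty-vector array. Both arrays held 33297 probe sets with a median of 7.77. Of the 9 measured A549 markers 8 were at or above the level filter on the mean, the exception being EPCAM. Of the markers of other cells, 1 of 6 alveolar type II, 1 of 5 fibroblast, 1 of 3 leukocyte and 0 of 4 endothelial genes reached it. Where a gene at or above the level filter had several different probe sets, their differences varied with a pooled SD of 0.163 on the log2 scale (356 genes). The SD was not measured for genes below the filter. That SD is a measure of probe disagreement only, with no part for cultures or precipitations.

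All 20 SNORA RNAs at or above the level filter were lower on the miR-130b array. Their median difference, miR-130b minus empty vector, was -0.51 on the log2 scale (1.43-fold lower), with a range from -1.06 to -0.093. Over all 9209 genes at or above the filter the median difference was 0.0100, and 48.4% of them were lower. Of the 20 SNORA RNAs, 9 were at least 1.5-fold lower, a size reached by 5.87% of all genes at or above the filter. At least 2-fold lower was 1 of them, against 1.6% of all such genes, and none was 2-fold higher, against 1.32%.

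SNORA68, also known as U68, had the largest decrease in this group. It stood at 10.30 on the miR-130b array and at 11.36 on the empty-vector array, a difference of -1.06 (2.08-fold lower) at the 1.36th percentile of all genes at or above the filter. SNORA20, from an intron of the chaperonin gene TCP1, stood at 9.90 with miR-130b and 10.83 with the empty vector (1.91-fold lower). SNORA14A stood at 8.60 with miR-130b and 9.45 with the empty vector (1.80-fold lower). SNORA14A lies within POR, the reductase that feeds electrons to cytochrome P450 enzymes. SNORA49, within the chromatin remodeller gene EP400, stood at 8.76 with miR-130b and 9.57 with the empty vector (1.76-fold lower). SNORA38B, within the ribosome assembly gene NOL11, stood at 9.35 with miR-130b and 10.09 with the empty vector (1.67-fold lower). Each of these differences was more than 4 times as large as the SD between probe sets.

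The middle of the group lay between 1.38-fold and 1.57-fold lower. SNORA22 stood at 11.74 with miR-130b and 12.39 with the empty vector, a difference of -0.65. SNORA67, within the translation initiation gene EIF4A1, stood at 9.56 with miR-130b and 10.19 with the empty vector, a difference of -0.63. SNORA50A, within the deadenylase scaffold gene CNOT1, stood at 10.12 with miR-130b and 10.75 with the empty vector, a difference of -0.63. SNORA24, a guide for small-subunit ribosomal RNA made from the non-coding host SNHG8, is among the H/ACA RNAs that have been linked to cancer. It stood at 11.08 with miR-130b and 11.63 with the empty vector, a difference of -0.55. The 3 measured SNORA71 RNAs share the host SNHG17 and have related sequences, so their probes may share signal. SNORA71A stood at 10.69 with miR-130b and 11.28 with the empty vector, SNORA71C at 12.03 with miR-130b and 12.51 with the empty vector, and SNORA71D at 12.66 with miR-130b and 13.13 with the empty vector. Their differences of -0.59, -0.48 and -0.46 lay within 1 SD between probe sets of each other.

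SNORA80E, formerly SNORA42, has been reported as raised in non-small-cell lung cancer. It stood at 9.48 with miR-130b and 9.93 with the empty vector, a difference of -0.45. SNORA37 stood at 8.80 with miR-130b and 9.24 with the empty vector, a difference of -0.44. SNORA10, whose 2 probe sets held identical values, stood at 10.49 with miR-130b and 10.92 with the empty vector, a difference of -0.43. These RNAs come from the RNA-binding protein gene KHDC4, the methyl-CpG-binding protein gene MBD2 and the ribosomal protein gene RPS2. SNORA23, within the nuclear import gene IPO7, stood at 12.23 with miR-130b and 12.64 with the empty vector, a difference of -0.41.

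The smallest decreases in the group were those of 4 RNAs, 3 of them in ribosomal protein genes. SNORA21, within RPL23, stood at 10.01 with miR-130b and 10.32 with the empty vector, a difference of -0.30. SNORA3A, within RPL27A, stood at 13.14 with miR-130b and 13.40 with the empty vector, a difference of -0.26. SNORA52, within RPLP2, stood at 8.84 with miR-130b and 9.06 with the empty vector, a difference of -0.22. All 3 differences exceeded the SD between probe sets. SNORA57 stood at 9.26 with miR-130b and 9.36 with the empty vector, and its difference of -0.093 was smaller than that SD.

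**Figure D1:**
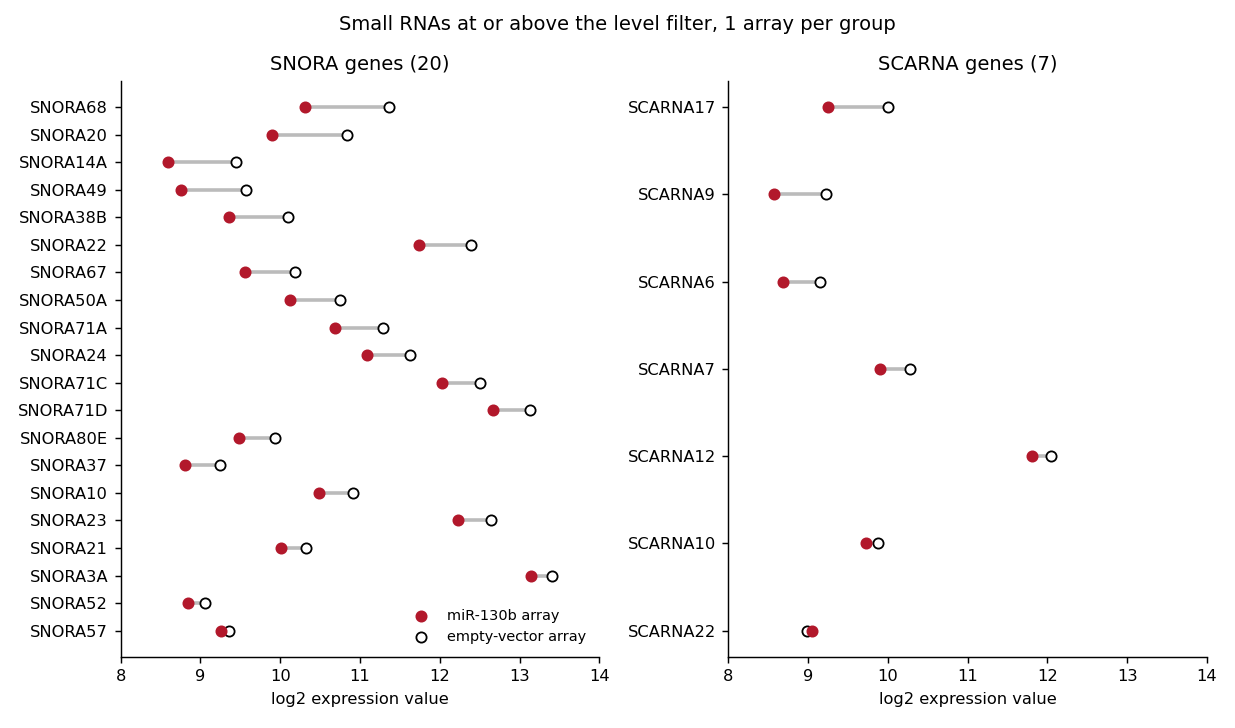
The log2 expression value (horizontal axis) of each SNORA (left, 20) and SCARNA gene (right, 7) at or above the level filter is plotted, with filled points for the miR-130b array and open points for the empty-vector array, 1 array per group. The filled point lies left of the open one for all genes except SCARNA22, and the widest gap is that of SNORA68 (10.30 with miR-130b, 11.36 with the empty vector).

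The Cajal-body RNAs at or above the filter were lower in 6 of 7 cases, against 48.4% of all genes at or above it. Their median difference was -0.38 (1.30-fold lower), with a range from -0.74 to 0.053. Grouped by box type, the 3 with C/D boxes had a median of -0.65. SCARNA17, which guides methylation of minor and major spliceosomal RNAs, stood at 9.25 with miR-130b and 9.995 with the empty vector (1.67-fold lower). SCARNA9, a guide for the U2 spliceosomal RNA, stood at 8.57 with miR-130b and 9.22 with the empty vector (1.57-fold lower). SCARNA7, also known as U90, stood at 9.90 with miR-130b and 10.28 with the empty vector (1.30-fold lower). Both probe sets of SCARNA17 (-0.65 and -0.84) and both of SCARNA9 (-0.81 and -0.49) were lower.

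The 3 SCARNA RNAs at or above the filter that carry both C/D and H/ACA boxes had a median difference of -0.24. SCARNA6, also known as U88, stood at 8.69 with miR-130b and 9.15 with the empty vector, a difference of -0.46. SCARNA12, also known as U89, stood at 11.81 with miR-130b and 12.05 with the empty vector, a difference of -0.24. SCARNA10, also known as U85 and a guide for the U5 spliceosomal RNA, stood at 9.72 with miR-130b and 9.88 with the empty vector, a difference of -0.15. The last of these is smaller than the SD between probe sets. SCARNA22, also known as ACA11, has H/ACA boxes only and is an orphan RNA within NSD2 that is raised in multiple myeloma with a translocation of that gene. It stood at 9.04 with miR-130b and 8.99 with the empty vector, the 1 RNA of the 27 that was higher (0.053), by less than that SD.

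The SNORA median minus the SCARNA median was -0.13 among RNAs at or above the filter. The ranges of the classes overlapped. Over all measured members the medians were -0.44 for 61 SNORA RNAs and -0.26 for 16 SCARNA RNAs. With 1 array per group and 7 SCARNA RNAs at or above the filter, these values do not show whether the classes differ. In both classes together, 20 of the 27 RNAs were lower by more than 2 SDs between probe sets, against 15.4% of all genes at or above the filter.

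The members above the filter had like medians in both bands of level. Between the filter and the 75th percentile of gene means, the 15 members had a median of -0.45, against 0.010 for all 4604 genes in that band. Above the 75th percentile, the 12 members had a median of -0.51 and all were lower, against a median of 0.0098 and 48.4% lower for all 4605 genes in that band. Spearman's rho between mean value and difference was 0.0079 over the 27 members at or above the filter and -0.33 over all 77, against -0.11 over all measured genes. These points share 1 pair of arrays. RNA length, with a median of 135 bases over the members in RefSeq, had a rho of -0.056 with the difference over all 77.

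**Figure D2:**
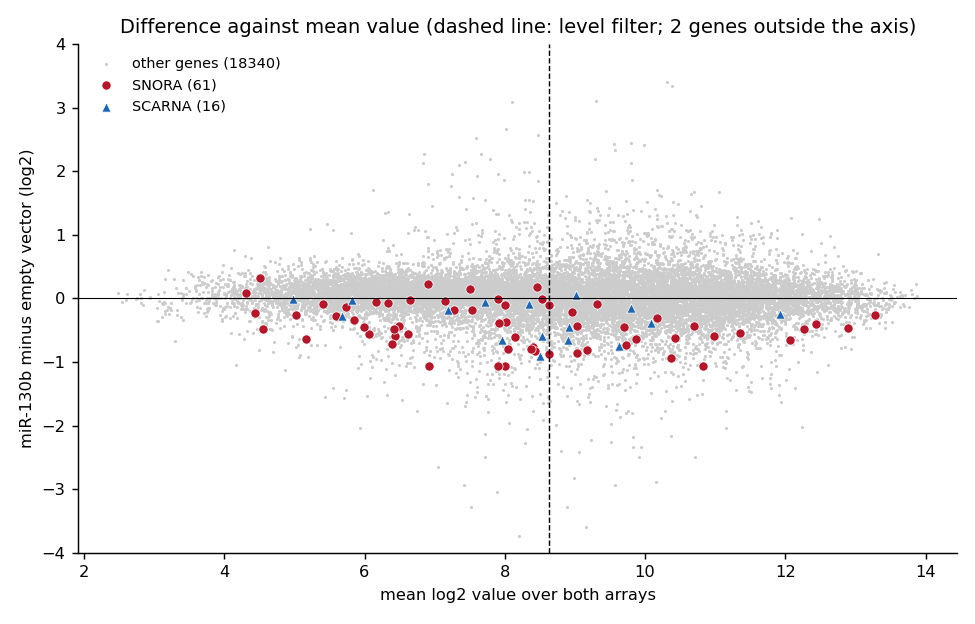
The difference of log2 values, miR-130b minus empty vector (vertical axis), is plotted against the mean log2 value over both arrays (horizontal axis) for 18340 other genes (grey), 61 SNORA genes (circles) and 16 SCARNA genes (triangles). The members lie mostly below 0 on both sides of the level filter (dashed line), and 2 other genes lie outside the axis.

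Of the 50 members below the filter, 45 were lower and 5 higher, with a median of -0.28. All 9208 genes below it had a median of 0.081, and 32.8% of them were lower. Background adds to low values, so differences there may be understated. Of all 77 members, 71 were lower, against 40.6% of all measured genes. At least 2-fold lower were 4 of the 77, against 1.37% of all measured genes, and none was at least 2-fold higher, against 1.06%.

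The 3 members below the filter with differences past 2-fold were SNORA41, SNORA75 and SNORA74A. SNORA41, within the translation elongation gene EEF1B2, stood at 6.39 with miR-130b and 7.46 with the empty vector (2.10-fold lower). SNORA75, also known as U23 and encoded in the nucleolin gene NCL, stood at 7.38 with miR-130b and 8.44 with the empty vector (2.09-fold lower). SNORA74A, also known as U19, stood at 7.47 with miR-130b and 8.53 with the empty vector (2.08-fold lower). All 3 were below the filter value on both arrays. The next in order were the Cajal-body RNA SCARNA4, with a difference of -0.91, SNORA7B, with -0.87, and SNORA62, the RNA E2 of the gene RPSA, with -0.82. SNORA7B had a mean of 8.63, just outside the filter, and its nearest neighbour there, SNORA80A, had a mean of 8.62 and a difference of -0.10. The nearest members inside it were SCARNA9, with a mean of 8.89, and SCARNA6, with 8.92.

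The 5 members that were higher below the filter had differences between 0.078 and 0.32. SNORA70F, at 4.67 with miR-130b and 4.35 with the empty vector, and SNORA70D, at 7.02 with miR-130b and 6.80 with the empty vector, are copies of SNORA70 outside its parent gene RPL10. The 6 such copies, SNORA70B to SNORA70G, had a median of -0.042, against -0.46 for the other 55 SNORA RNAs. SNORA80B was higher by 0.19 and SNORA35 by 0.14. SNORA35 lies within the serotonin receptor gene HTR2C, known as a brain gene, which stood at 5.44 with miR-130b and 5.29 with the empty vector. SNORA2B was higher by 0.078.

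All 9 Cajal-body RNAs below the filter were lower, against 32.8% of all genes below it, and their median was -0.18. SCARNA4, also known as ACA26, has H/ACA boxes only. It stood at 8.05 with miR-130b and 8.96 with the empty vector, a difference of -0.91. SCARNA5, also known as U87 and of mixed box type, stood at 8.24 with miR-130b and 8.84 with the empty vector, a difference of -0.60. SCARNA9L stood at 7.63 with miR-130b and 8.29 with the empty vector, a difference of -0.65. It is a copy of SCARNA9, and the differences of its 2 probe sets (-0.81 and -0.50) nearly equal those of SCARNA9 (-0.81 and -0.49), so the pair may share signal. The other 6 have H/ACA boxes only, as SCARNA4 does, but differed by less. SCARNA1 differed by -0.27 and SCARNA11 by -0.18, while SCARNA16 (-0.081), SCARNA8 (-0.052), SCARNA23 (-0.030) and SCARNA14 (-0.017) differed by less than the SD between probe sets. That SD comes from genes at or above the filter.

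**Figure D3:**
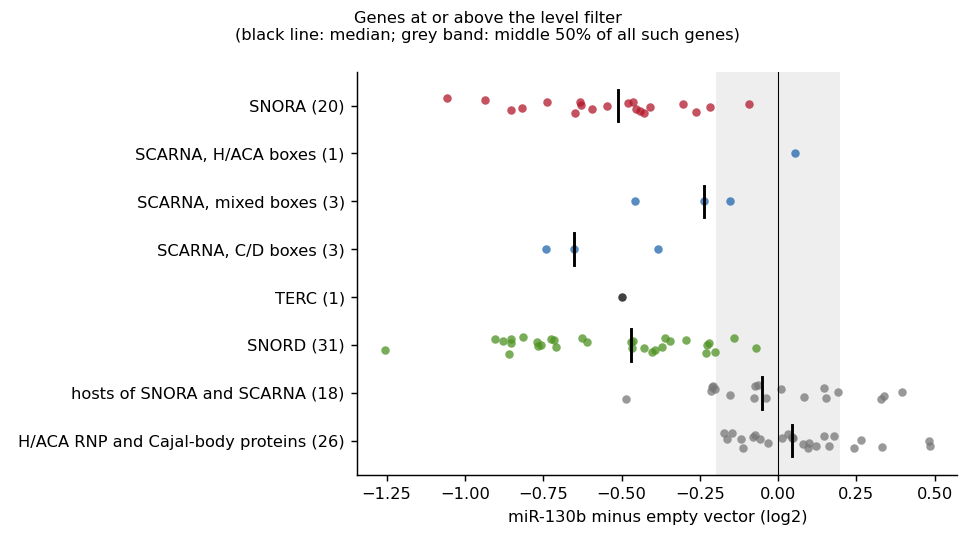
Differences of log2 values, miR-130b minus empty vector (horizontal axis), are plotted for genes at or above the level filter, 1 point per gene, with numbers of genes in brackets, black lines at medians and a grey band from the lower to the upper quartile of all such genes. The SNORA RNAs (median -0.51), TERC (-0.50) and SNORD RNAs (median -0.47) lie left of the band for the most part, and the medians of the hosts and of the proteins lie inside it.

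A host gene was assigned to 73 of the 77 members from RefSeq spans, and 60 of these had a host that was measured. In 20 cases, with 18 different hosts, both the small RNA and its host were at or above the filter. The small RNA had the lower difference in 18 of these 20 pairs, with a median of -0.46 for the small RNAs and -0.070 for the hosts. The median of the difference within pairs was -0.42. The 2 exceptions were SNORA71C and SNORA71D. Of the 18 hosts, 10 were lower, against 48.4% of all genes at or above the filter, and none differed by 2-fold, against 2.92% of such genes. Probes in an intron can also read host RNA that has not been spliced, so a small RNA and its precursor cannot be told apart.

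Among the 20 pairs with both at or above the filter, the widest gap was that of SNORA20 and TCP1. The TCP1 mRNA stood at 13.07 with miR-130b and 12.91 with the empty vector, a difference of 0.15, against -0.93 for SNORA20. CEP295, a centriole gene and the host of SCARNA9, stood at 9.18 with miR-130b and 8.79 with the empty vector, a difference of 0.40, against -0.65 for SCARNA9. NOL11 stood at 11.93 with miR-130b and 11.78 with the empty vector, a difference of 0.15, against -0.74 for SNORA38B. In each of these pairs the small RNA was lower and the host higher. EP400 (-0.075), POR (-0.21) and CNOT1 (-0.077) were lower by less than their small RNAs.

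The pairs with the least gap were those in SNHG17 and in 2 protein genes. SNHG17 stood at 9.43 with miR-130b and 9.91 with the empty vector, a difference of -0.48, and its 3 SNORA71 RNAs lay at -0.11, 0.0064 and 0.020 from it. PHB2, the prohibitin gene that hosts SCARNA12, had a difference of -0.20 against -0.24 for SCARNA12. RPLP2 had a difference of -0.21 against -0.22 for SNORA52. Of the hosts with SCARNA RNAs, NCAPD2, a condensin gene, differed by 0.33 and NSD2, a histone methyltransferase gene, by 0.34. The small RNA minus its host was -0.48 for SCARNA10 and -0.28 for SCARNA22.

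The other measured hosts of RNAs at or above the filter differed by between -0.22 and 0.19. IPO7 differed by -0.038, MBD2 by 0.0096, RPS2 by -0.15, KHDC4 by -0.064 and KPNA4, the host of SCARNA7, by 0.084. ATG16L1, an autophagy gene that hosts SCARNA5 and SCARNA6, differed by -0.21. RPL27A was higher by 0.19 while SNORA3A was lower. RPL23, below the filter at 7.83 with miR-130b and 8.05 with the empty vector, differed by -0.22. EIF4A1, SNHG8 and SNHG22, the hosts of SNORA67, SNORA24 and SCARNA17, had no probe set of their own. Among hosts of RNAs below the filter, NCL differed by 0.075 and EEF1B2 by -0.052, against -1.06 and -1.07 for SNORA75 and SNORA41. In the 34 pairs of such an RNA with a host at or above the filter, the median of the hosts was 0.0060, with a range from -0.67 for AAK1, the host of SNORA36C, to 0.63 for POLA1, the host of SCARNA23. ODC1, the host of SNORA80B, differed by -0.34. COBLL1, the host of SNORA70F, was itself below the filter and differed by -0.28. The hosts of SCARNA9L (EIF1AX, 0.30), SCARNA14 (TIPIN, 0.34), SCARNA8 (HAUS6, 0.074) and SCARNA11 (CHD4, 0.043) were higher. RPL32P3, a pseudogene that holds SNORA7B and was also below the filter, was lower (-0.25). Over all 60 pairs the small RNA lay below the host in 51, with a median difference within pairs of -0.34. The 5 measured hosts that are ribosomal protein genes hold 6 members, all of which were lower and all of which lay below the host. This was not particular to them. Of the 49 members of other hosts at or above the filter, 46 were lower and 42 lay below the host. Of all measured genes, 40.6% were lower.

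**Figure D4:**
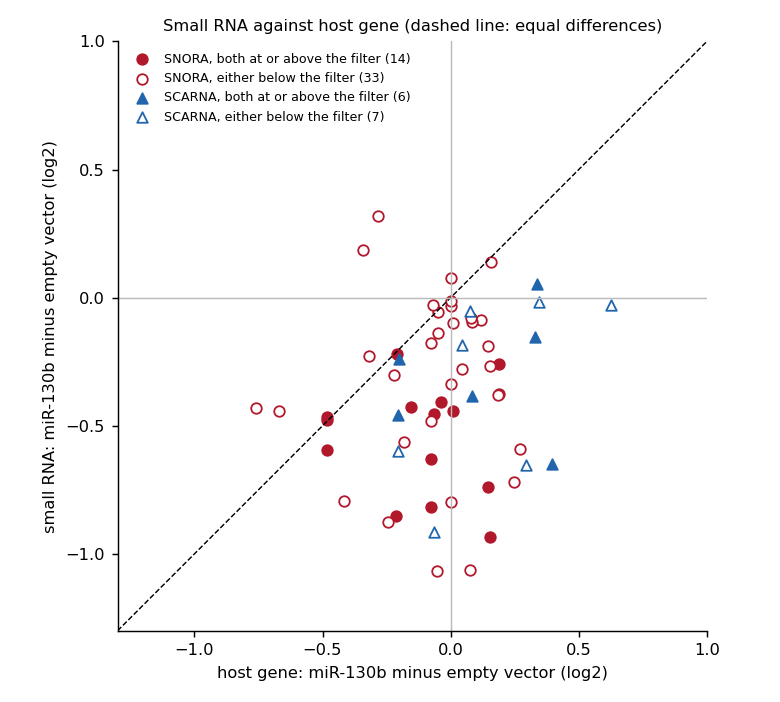
The difference of each small RNA (vertical axis, miR-130b minus empty vector, log2) is plotted against that of its host gene (horizontal axis, same unit) for 60 pairs, with filled symbols where both are at or above the level filter. Points below the dashed line of equal differences, 51 of 60, are small RNAs with a lower difference than the host.

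Small RNAs from introns of 1 host did not always have like differences. Of 9 hosts with several members, 5 had members that differed from each other by more than 2 SDs between probe sets (0.33). That SD is for the difference of 1 probe set and comes from genes at or above the filter. A gap between 2 RNAs varies by more, so the bound is a low one for such gaps. The widest gaps were 0.78 in TBRG4 and 0.67 in TCP1, and those in KHDC4, CNOT1 and KANSL2 lay between 0.42 and 0.46. The gene TBRG4 holds 3 related RNAs, of which SNORA5A stood at 7.65 with miR-130b and 8.45 with the empty vector (-0.80). SNORA5B (-0.033) and SNORA5C (-0.013), from the same gene, hardly differed between the arrays, and TBRG4 itself differed by 0.0030. Within TCP1, SNORA20 differed by -0.93 and SNORA29, at 4.89 with miR-130b and 5.16 with the empty vector, by -0.27. Within KHDC4, SCARNA4 differed by -0.91 and SNORA80E by -0.45. Within CNOT1, SNORA50A differed by -0.63 and SNORA46 by -0.18, and within KANSL2, SNORA2A differed by -0.34 and SNORA2B by 0.078. In TBRG4 all 3 RNAs were below the filter, and in the other 4 hosts at least 1 was, so low signal may understate these differences. In RPSA, SNORA62 (-0.82) and SNORA6 (-0.60) both were lower.

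C/D-box RNAs, which guide methylation and are bound by other proteins, had values like those of the H/ACA RNAs. At or above the filter, 31 of 31 SNORD RNAs were lower with a median of -0.47, against 48.4% of all genes there. Over all 115 measured, 100 were lower with the same median, against 40.6% of all measured genes. In NCL, SNORD82 differed by -1.02 and SNORD20 by -0.69, beside -1.06 for SNORA75. In EEF1B2, SNORD51 differed by -0.66 beside -1.07 for SNORA41. In NOP56, SNORD57 differed by -0.20 and SNORA51 by -0.014.

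TERC, the RNA of telomerase, ends in an H/ACA domain, binds the same proteins and passes through Cajal bodies, but it has its own promoter and is not cut from an intron. It stood at 10.14 with miR-130b and 10.64 with the empty vector, a difference of -0.50 (1.41-fold lower) at the 7.97th percentile of all genes at or above the filter. Its value thus lay near the SNORA median. TERT, the protein subunit of telomerase, stood at 8.94 with miR-130b and 8.89 with the empty vector, a difference of 0.044.

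The mRNAs of the proteins that bind, assemble or trim these RNAs did not share their values. Of 31 listed genes, with TERC among them, 28 were measured and 27 were at or above the filter. Of these, 17 were higher (51.5% of all genes at or above the filter were) and 10 lower, with a median of 0.045. None was past 2-fold, which is near the share of 2.92% among all genes at or above the filter. In the H/ACA core, DKC1, which encodes the pseudouridine synthase dyskerin, stood at 11.49 with miR-130b and 11.61 with the empty vector (-0.12). NOP10 (-0.16) and NHP2 (-0.17) were also lower, and GAR1 was higher (0.18). None of these 4 differences exceeded 2 SDs between probe sets. The assembly factors SHQ1 (0.24), NAF1 (0.15), NOLC1 (0.12) and RUVBL1 (0.10) were higher and RUVBL2 (-0.11) lower. TCOF1, which encodes the nucleolar protein treacle, had the largest increase of the list (0.49), at 10.63 with miR-130b and 10.15 with the empty vector.

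Genes of Cajal bodies went both ways. NPAT, a histone gene activator, stood at 10.10 with miR-130b and 9.62 with the empty vector (0.48). WRAP53, which brings SCARNA RNAs and TERC to Cajal bodies, stood at 9.85 with miR-130b and 9.52 with the empty vector (0.33). COIL, which encodes the scaffold coilin, differed by 0.030, GEMIN5 by 0.079, USPL1 by -0.073 and FAM118B by -0.15, and GEMIN2, below the filter, by -0.043. Among enzymes that act on the ends of these RNAs, TENT4A (0.27) and TENT4B (0.16) add short tails, and PARN (-0.079) and TOE1 (0.045) remove them. EXOSC10 (0.095) is part of the nuclear exosome and MTREX (0.012) works with it, and TGS1 (-0.031) modifies the caps of small RNAs. The C/D core proteins FBL (-0.057) and NOP58 (0.046) differed by less than 1 SD between probe sets. SMN1, NOP56 and SNU13 had no probe set of their own.

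Many hosts of small nucleolar RNAs are known to start with a run of pyrimidines, the terminal oligopyrimidine tract that ties translation to growth signals. RefSeq gene starts (GRCh38.p14) were given for 52 of the 62 hosts, and they were searched on the gene's own strand for a C at the annotated start followed by at least 4 bases that are each C or T. Of the 52, 15 (28.8%) held it, against 4.04% of 27305 gene starts. A start that is annotated a few bases off would be missed. The lines below give 20 bases before and 10 from the start for 4 hosts with it and 4 without, chosen because their small RNAs were named above. Capitals mark the run from the start as far as it lies in the window.
RPLP2: gcctcttgcgtcggcgccttCCTTTTCCTC
RPL27A: gagacttggcgaaggccttcCTTTTTCgtc
IPO7: gggccttggcgcttctctttCCTTTCgcgc
PHB2: gcgcacttccgctgccctttCTTTCgccag
TCP1: ggtggggtggtgtgttacccagtagctcct
NCL: caggctcagtctttcgcctcagtctcgagc
EEF1B2: gttccgccggaagtggccccagcctcgagg
SNHG17: cttccttgtcgtgtggcctcagtccttcgc

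On the plus strand, these windows are chr11:809947-809976 for RPLP2, chr11:8682772-8682801 for RPL27A, chr11:9384632-9384661 for IPO7 and chr2:206159589-206159618 for EEF1B2. On the minus strand, they are chr12:6970655-6970684 for PHB2, chr6:159789593-159789622 for TCP1, chr2:231464475-231464504 for NCL and chr20:38435319-38435348 for SNHG17. The small RNAs of hosts with the run had no steady order against the others. At or above the filter, 6 RNAs of hosts with it had a median of -0.25 and 13 of hosts without it -0.55. Below the filter the order was the other way, with a median of -0.59 for 11 RNAs of hosts with the run and -0.21 for 32 of hosts without it.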

How the data were processed

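Each sample had 1 array, with 1 sample per group. The deposited table holds a log2 value per probe set and array. This unit was read from the range (1.95 to 14.2), since no source used here gives the authors' software, background correction or normalization. Both columns have nearly the same distribution, so a difference can show change only against the rest of the array. A platform annotation named 21214 of 33297 probe sets, of which 19460 had 1 symbol and 1754 several. Probe sets with 1 symbol were averaged per gene. Hosts and listed genes were looked up by symbols updated through Entrez identifiers.

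A host was the gene whose RefSeq span (GRCh38.p14) held the small RNA: a host known from general knowledge for 53 members, or the 1 gene spanning it for 20. With several spanning genes and no known host (4 members) none was assigned. The planned match of strands could not be made, because the table gives no strand for the small RNAs. Box types and the protein list were written from general knowledge. The members and lists were chosen with earlier results of these data known. Named were all members at or above the filter, all SCARNA RNAs, the 5 largest differences each way below the filter, the hosts of named members and the protein list, except 1 host that is not reported here. Other members and the SNORD RNAs of shared hosts were added after their values were seen.

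With 1 array per group no test was run. Gene averaging was tested on simulated data. The number of arrays limits the precision. Alternatives were other normalizations (quantile and cyclic loess, limma 3.58.1 in R 4.3.3), centring, filters, thresholds, the brightest probe set, updated symbols, repeated probe sets counted once, hosts below the filter and means. Python 3.11.15, pandas 2.3.3 and numpy 2.4.6 were used.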

Additional observations from a re-analysis of the deposited data

How the results depend on the processing

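None of 79 alternative values for 9 results changed sign. The alternatives for the count of lower members (9) and for the 2-fold count (10) could not, because a count is never negative. The brightest probe set, updated symbols and repeated probe sets counted once left nearly all values as they were, since most members have 1 probe set. With no replicates, no measure of error was at hand to say which of the shifts below exceed it. Over the alternatives, the SNORA value ranged from -0.55 (mean in place of median) to -0.44 (no filter, 61 RNAs). The SCARNA value ranged from -0.39 to -0.24, the last being that of the 1 SCARNA RNA above the 75th percentile. The gap to the host ranged from -0.42 to -0.34 (no filter, 60 pairs), and the protein list value from 0.030 to 0.070. When the filter was moved up to the 75th percentile, 12 of 12 members were lower, and the SNORA minus SCARNA gap was -0.31, with 1 SCARNA RNA left. With no filter, 71 of 77 members were lower, against 40.6% of all measured genes. At least 2-fold lower were 4 of them, against 1.37% of all measured genes. At a threshold of 1.5-fold, 11 of 27 members were counted, all of them lower. Among all genes at or above the filter, 5.87% were lower by that much. No paired analysis was possible because each group has 1 array. Replicate error, detection limits of single probe sets and the share of RNA carried over without Ago2 were not tested.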

Other observations

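Probe sets that name a SNORA or SCARNA gene together with other genes were left out of the members. Most give values for RNAs not described so far, but SNORA33 and SNORA60 are also members through probe sets of their own. SNORA33 differed by -0.64 on its own probe set, by -0.60 on that shared with RPS12 and by -0.080 on that shared with SNORD101. SNORA60 differed by -0.76 on its own probe set and by -0.17 on that shared with SNHG11. There were 28, of which 26 were lower with miR-130b, with a median difference of -0.46. Of all measured genes 40.6% were lower, but no share was computed over all probe sets that name several genes. The 28 are not separate observations. Those of SNORA59A and SNORA59B hold identical values, and SNORA70 and SNHG12 are each named by several. Of the 14 at or above the level filter, 13 were lower, with a median of -0.64 and a range from -0.93 to 0.076. Among all genes at or above it 48.4% were lower. The probe set of SNORA73A, the U17 RNA needed for processing of ribosomal RNA rather than for its modification, and its host SNHG3 stood at 10.85 with miR-130b and 11.78 with the empty vector (1.91-fold lower). That of SNORA8 and TAF1D stood at 9.14 with miR-130b and 9.88 with the empty vector (1.68-fold lower). The 2 probe sets of SNORA70 and RPL10 differed by -0.74 and -0.69, whereas a probe set that names RPL10, SNORA70 and DNASE1L1 differed by -0.11. That of SCARNA13 and SNHG10 differed by -0.55. The probe sets of SNORA59A and SNORA59B and of SNORA33 and SNORD101 name small RNAs only. Each of the others names a host as well, so the small RNA and the host cannot be told apart in them.

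SCARNA15, also known as ACA45, is the Cajal-body RNA known for being cut by Dicer into a fragment that Argonaute proteins bind. Its probe set, shared with SNHG21, stood at 3.81 with miR-130b and 3.98 with the empty vector, below the level filter. The probe sets measure whole-transcript cDNA and were not designed for such fragments. These values and names were chosen after the data had been seen.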
